A study of Mus musculus with 9 samples.

Results

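Ad-OSCAR chondrocytes given 5-ASA were compared with Ad-Control chondrocytes, to ask what stays abnormal under the drug, which functions stand at the control level and which genes go past it. The comparison takes 6 of the 9 cultures of the study, 3 treated and 3 Ad-Control, chosen by their labels. The remaining 3, Ad-OSCAR cultures without the drug, served to say which genes the receptor had moved in the first place. All 9 were primary articular chondrocytes of wild-type mice at postnatal day 5, taken from femoral condyles and tibial plateaus, grown on plates coated with COLpep, a collagen peptide that binds OSCAR.

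Per the labels, cells were infected for 2 h at a multiplicity of 400 after 3 days of culture, and culture after infection was 36 h. The study's methods state another schedule and another multiplicity. Ad-Control cells received the control adenovirus and saw COLpep but no added receptor, Ad-OSCAR cells received an adenovirus carrying Oscar, and the treated cells received the same Oscar virus and then 5-ASA. There was no Ad-Control group with 5-ASA, so an action of the drug on any chondrocyte and an action on the OSCAR response cannot be told apart. The labels do not say whether the cultures of a group came from separate animals, so each p-value measures only the spread between these cultures.

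OSCAR, the osteoclast-associated receptor, binds collagen and is best known as a costimulatory receptor of osteoclasts. 5-ASA, or mesalazine, is an anti-inflammatory salicylate used in bowel disease. Articular chondrocytes keep up a matrix of type II collagen and aggrecan, and in inflamed cartilage they turn to secreting chemokines, prostaglandin enzymes and matrix-degrading proteases. Cells that run short of amino acids, or whose endoplasmic reticulum is stressed, translate the transcription factor ATF4, which binds C/EBP-ATF response elements in genes for amino acid synthesis, amino acid uptake and tRNA charging.

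Estimated counts summed to between 19733431 and 28192725 per culture, and 15362 genes passed the filter on low counts. Oscar itself was at 0.189, 0.123 and 0.211 CPM (counts scaled to a common library total and normalized by the trimmed mean of M values) in the Ad-Control cultures. It reached 6354, 7112 and 6528 CPM in Ad-OSCAR and 3528, 2946 and 3723 CPM in treated cultures. Every treated culture was thus below every untreated Ad-OSCAR culture, a log2 difference of -0.97 with an adjusted p = 1.76e-08 in edgeR's quasi-likelihood test, so less receptor RNA moves together with every effect of the drug given here. In bulk RNA, fewer cells of a type and less RNA per cell cannot be told apart. The summed CPM of 12 chondrocyte markers was 38823 to 44572 in Ad-Control, 2374 to 2704 in Ad-OSCAR and 2834 to 3286 in treated cultures. A list of 15 macrophage markers, 7 of them tested, summed to 19.7 to 22 CPM in Ad-Control, 37.6 to 38.1 in Ad-OSCAR and 31.3 to 32.9 in treated cultures, with Cd163 and C1qa at 0. For 12 synovial fibroblast markers the sums were 685 to 721, 1442 to 1463 and 1279 to 1368 CPM. The part of such cells in any result given here was not tested.

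Treated cells stood far from Ad-Control. At an adjusted p under 0.05 and a fold above 1.5, 2160 genes (14.1% of those tested) were higher and 2312 (15.1%) lower in treated cells, while for 7563 (49.2%) the 95% interval of the difference lay within 1.5-fold of Ad-Control. Untreated Ad-OSCAR cells, set against the same Ad-Control cultures, gave 2326 genes higher (15.1%) and 2565 lower (16.7%), with 7174 (46.7%) inside the bound. Between treated and untreated Ad-OSCAR cells, 1598 genes (10.4%) were higher and 1134 (7.38%) lower with the drug at an adjusted p under 0.05 and no fold limit, the test used wherever the drug is said to raise or lower a gene. Because the controls are shared, the values of both comparisons are given side by side and no agreement between them is scored.

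Of the 2326 genes that OSCAR raised, 1809 were still higher than Ad-Control under the drug (77.8% of the raised genes, 11.8% of all tested). Of the 2565 that it lowered, 2063 were still lower (80.4% of the lowered genes, 13.4% of all tested). Among the genes still higher, the median log2 difference from Ad-Control was 1.22 without and 1.18 with 5-ASA, and among those still lower it was -1.23 without and -1.11 with it. These genes were chosen for passing the call in both comparisons, so the closeness of the medians partly follows from that choice. The drug moved 266 of the genes still higher and 396 of those still lower toward Ad-Control at an adjusted p under 0.05, moved 163 and 93 further away, and passed that test for none of the remaining 1380 and 1574.

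A gene was counted as back at the Ad-Control level where OSCAR had moved it past the threshold, the drug moved it toward Ad-Control at an adjusted p under 0.05, and the 95% interval of treated against Ad-Control lay within 1.5-fold. This held for 77 genes that OSCAR had raised (0.501% of all tested) and for 156 that it had lowered (1.02%). Most had been moved little by OSCAR. Among raised genes, 75 of 1061 moved by 1.5-fold to 2-fold were back, 2 of 843 moved by 2-fold to 4-fold, and 0 of 422 moved by 4-fold or more. Among lowered genes these counts were 143 of 1127, 13 of 913 and 0 of 525. The bound is fixed, so a gene moved further needs a larger shift to be counted, and the fall with size partly follows from the rule. A further 433 raised and 337 lowered genes were neither called against Ad-Control nor inside the 1.5-fold bound by their interval. Back means within that bound and not equal, since 64 of the 77 raised and 123 of the 156 lowered genes still differed from Ad-Control at an adjusted p under 0.05. Without treated replicate 1, 49 raised genes were counted as back, 45 of them among the 77.

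**Figure D1:**
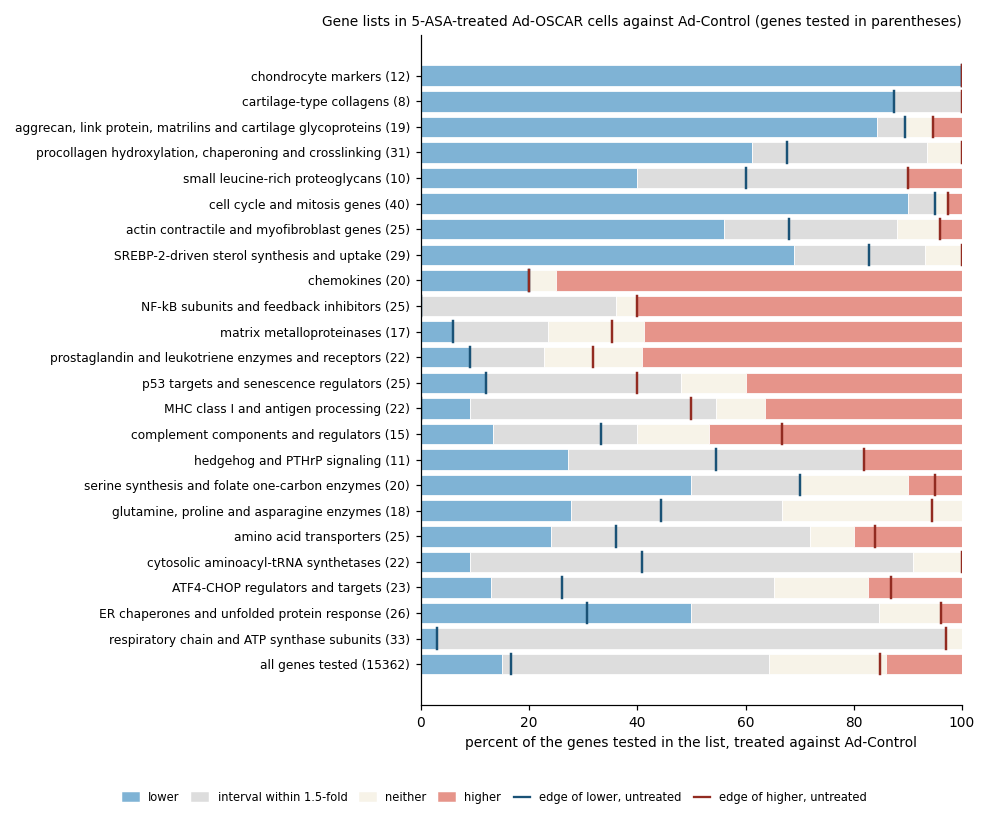
Share of the tested genes of each list, in percent, that were lower than, within 1.5-fold of by their 95% interval, or higher than Ad-Control in the 3 treated cultures, with ticks at the lower and higher shares in the 3 untreated Ad-OSCAR cultures. Chondrocyte markers were lower in 12 of 12 genes in both, while for tRNA synthetases the lower share went from 9 of 22 untreated to 2 of 22 treated.

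Cartilage matrix genes remained at a small fraction of their Ad-Control level. All 12 chondrocyte markers tested were lower in treated cells, with a median log2 difference of -5.28 beside -5.55 without the drug, against a median of 0.01 over all genes tested in treated cells. Acan, which encodes aggrecan, stood at 2490.1, 2232 and 2241 CPM in Ad-Control, at 27.8, 29.4 and 26.6 CPM in Ad-OSCAR and at 33, 31.8 and 36.1 CPM in treated cultures. The treated cultures all lay above the untreated ones, by 0.27 on the log2 scale (adjusted p = 0.00496), yet Acan was still 69-fold lower than in Ad-Control (log2 difference -6.11 ± 0.07, SE, n = 3 per group, adjusted p = 4.62e-21). Col2a1, the type II collagen chain, measured 36792, 31981 and 32799 CPM in Ad-Control, 2262, 2267 and 1947 CPM in Ad-OSCAR and 2703, 2373 and 2797 CPM in treated cultures. It was 12.9-fold lower in treated cells than in Ad-Control, with no overlap (adjusted p = 6.73e-18).

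Among the genes still lower, the 8 with the lowest ratio to Ad-Control were Ucma, Matn3, Ppp1r1b, Cnmd, Matn1, Acan, Fzd9 and Galnt9. Ucma, a small secreted protein of the cartilage growth zone, had 231, 197 and 199.7 CPM in Ad-Control against 0.769, 0.73 and 0.79 CPM in treated cultures, 273-fold lower (adjusted p = 3.3e-20). Cnmd, which encodes the anti-angiogenic matrix protein chondromodulin, had 809, 715 and 685 CPM in Ad-Control, 7.16, 7.26 and 6.77 CPM in Ad-OSCAR and 6, 6.31 and 5.53 CPM in treated cultures. The treated values lay under the untreated ones and were 124-fold lower than in Ad-Control (adjusted p = 5.89e-21). The matrilins, adaptor proteins of cartilage fibrils, gave log2 differences of -7.36 ± 0.16 for Matn3 and -6.32 ± 0.13 for Matn1.

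The drug moved part of the fibrillar matrix without bringing it to the control range. Col11a1, a minor chain of cartilage fibrils, was at 5610.4, 5338 and 4804 CPM in Ad-Control, 814, 794 and 735 CPM in Ad-OSCAR and 1154, 1152 and 1169 CPM in treated cultures. Its treated level rose over the untreated one by 0.57 on the log2 scale (adjusted p = 5.13e-07) and was 4.53-fold lower than in Ad-Control. Comp, a glycoprotein that bridges collagen fibrils, measured 1259, 1049 and 1119 CPM in Ad-Control and 57.2, 56.4 and 60.6 CPM in treated cultures. Of 8 cartilage collagens, 7 were lower with and without the drug, and of 19 cartilage glycoproteins, 16 were lower with the drug and 17 without.

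**Figure D2:**
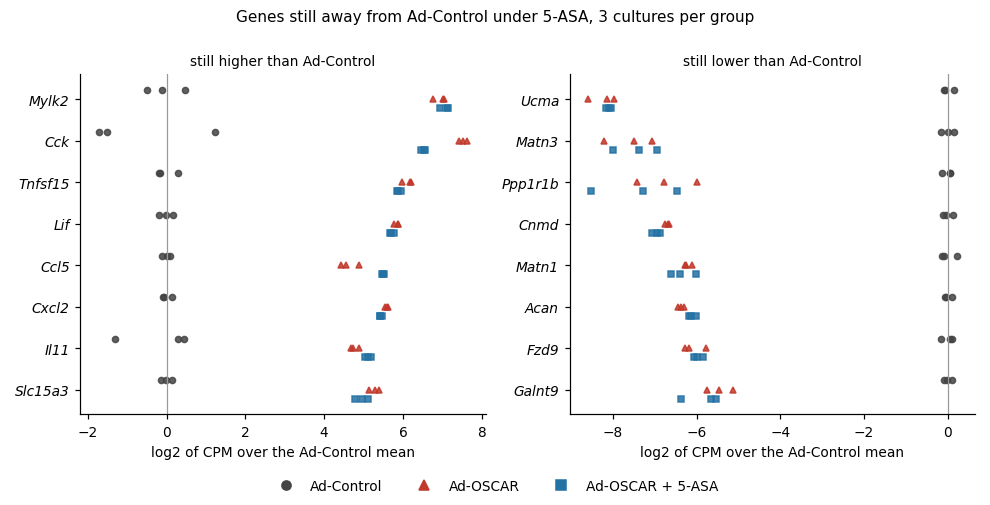
The log2 ratio of CPM to the Ad-Control mean in each of the 9 cultures for the 8 genes farthest above and the 8 farthest below Ad-Control among those still higher or lower under 5-ASA; each point is 1 culture. Untreated and treated Ad-OSCAR points both lie far from Ad-Control. Cck points are lower and Ccl5 points higher with 5-ASA than without it.

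Cell division genes stayed low. Of 40 cell cycle genes tested, 36 were lower than Ad-Control in treated cells and 38 in untreated Ad-OSCAR cells, with medians of -3.30 and -2.97 on the log2 scale. Cdk1, the mitotic kinase, was at 56.7, 60.8 and 58.4 CPM in Ad-Control, 13.8, 15.7 and 14.6 CPM in Ad-OSCAR and 13.9, 14.4 and 14.2 CPM in treated cultures. Treated and untreated Ad-OSCAR values overlapped, and treated cells were 4.13-fold below Ad-Control (adjusted p = 1.34e-15). The drug lowered 16 of the 40 genes at an adjusted p under 0.05.

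Most chemokine genes also stayed high, while the cytokine lists were mixed. Of 20 chemokines tested, 15 were higher and 4 lower than Ad-Control under the drug, beside 16 and 4 without it. Of 18 genes of the interleukin-6 family with its receptors and feedback, 4 were higher, 3 lower and 8 within the 1.5-fold bound under the drug. These shares (22.2%, 16.7% and 44.4%) lay near the 14.1%, 15.1% and 49.2% of all genes tested. Of 18 genes of the interleukin-1 family 7 were higher and 5 lower. Lif, a cytokine of the interleukin-6 family, had 8.12, 10.4 and 9.14 CPM in Ad-Control, 538, 540.1 and 508 CPM in Ad-OSCAR and 480.3, 466 and 502 CPM in treated cultures. Each treated culture lay below each untreated one, and the treated level was 52.2-fold that of Ad-Control (log2 difference 5.71 ± 0.07, adjusted p = 2.17e-20). Cxcl2, a neutrophil attractant, had 4.58, 5.34 and 4.6 CPM in Ad-Control and 215, 206 and 208 CPM in treated cultures, 43.1-fold higher (adjusted p = 1.5e-20). Cxcl1, another neutrophil attractant, was 9.78-fold higher than in Ad-Control, at 4323, 4449 and 4034 CPM in treated cultures beside 4588, 4386 and 4076 CPM in untreated ones, which overlap.

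Of the 20 chemokines tested, the drug raised 8 and lowered 2. Ccl5, which draws T cells and monocytes, rose under the drug. It was at 1.51, 1.6 and 1.37 CPM in Ad-Control, 35.1, 43.9 and 32.4 CPM in Ad-OSCAR and 67.4, 65.7 and 68.9 CPM in treated cultures. All treated cultures were above all untreated ones, by 0.86 on the log2 scale (adjusted p = 3.64e-07), and the fold over Ad-Control was 24.5 without and 44.6 with 5-ASA. Il11, another interleukin-6 family cytokine, was also further up, at 43.7, 46.2 and 41.7 CPM in treated cultures beside 33.9, 37.9 and 32.8 CPM in untreated ones and 0.519, 1.56 and 1.74 CPM in Ad-Control (adjusted p = 0.0108 for treated against untreated). The macrophage and fibroblast marker sums given above were higher in both OSCAR groups than in Ad-Control, but their members went both ways, with 2 higher and 2 lower of 7 macrophage markers and 4 higher and 4 lower of 11 fibroblast markers tested under the drug.

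Cck, Mylk2, Tnfsf15 and Slc15a3 completed the 8 genes with the highest ratio to Ad-Control. Cck, the gene of the peptide hormone cholecystokinin, fell under the drug from 24.8, 26.8 and 23.1 CPM to 12.8, 12.4 and 11.9 CPM (log2 difference -1.01, adjusted p = 5.94e-07), and was still 95.9-fold higher than in Ad-Control, a fold that rests on few counts in Ad-Control (0.0472, 0.0411 and 0.317 CPM). Mylk2, a skeletal muscle myosin light chain kinase, had 0.189, 0.247 and 0.37 CPM in Ad-Control, 35.6, 34.7 and 29.1 CPM in Ad-OSCAR and 38.2, 33.1 and 37.5 CPM in treated cultures, the last 2 groups overlapping. The value of Slc15a3, a lysosomal peptide transporter that was 30.9-fold higher, is uncertain because Tmem132a and AC132402.1 overlap it on the opposite strand, and the sources used here do not say whether reads were counted by strand.

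Most prostaglandin and matrix metalloproteinase genes stayed above Ad-Control, and other protease lists were mixed. Ptgs2, which encodes the inducible cyclooxygenase COX-2, was at 46.1, 59.7 and 55 CPM in Ad-Control, 1961, 1845 and 2127 CPM in Ad-OSCAR and 1581, 1635 and 1634 CPM in treated cultures. Every treated culture lay below every untreated Ad-OSCAR culture (log2 difference -0.29, adjusted p = 0.00417), and Ptgs2 was still 30.1-fold above Ad-Control (adjusted p = 7.87e-19). Mmp3, or stromelysin 1, went from 2133, 2274 and 2072 CPM in Ad-Control to 11087, 11381 and 10761 CPM in Ad-OSCAR and 13013, 14183 and 12246 CPM in treated cultures. Treated cultures were the highest of the 3 groups, with 0.25 on the log2 scale over the untreated ones (adjusted p = 0.00125). Mmp13, the main collagenase of cartilage, was 2.53-fold higher than in Ad-Control. Of 22 eicosanoid genes 13 were higher and 2 lower in treated cells, and of 17 matrix metalloproteinases 10 were higher and 1 lower. ADAMTS proteases gave 5 higher and 4 lower of 13, and the TIMP and plasminogen list 3 higher and 5 lower of 11. Cathepsins and cystatins gave 2 higher and 0 lower of 15, with 7 within the bound (46.7%, beside 49.2% of all genes tested).

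Genes of NF-kB signalling and its feedback gave 15 higher and 0 lower of 25 tested, with and without the drug. Nfkbiz, a nuclear cofactor of NF-kB, was 4.5-fold and Nfkbia, its cytoplasmic inhibitor, 2.97-fold higher than in Ad-Control under 5-ASA. Nfkb2, the precursor of the p52 subunit, was the member counted as back, at 60.5, 54.2 and 56.2 CPM in Ad-Control, 88.8, 91.3 and 89.9 CPM in Ad-OSCAR and 81.2, 71.2 and 82 CPM in treated cultures. Its treated values lay between both other groups and nearer to Ad-OSCAR (log2 difference from Ad-Control 0.46, 95% interval 0.33 to 0.58), so it met the bound without reaching the control values.

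Genes for the supply and use of amino acids were among those that came back. Of 109 tested genes in lists of serine and one-carbon metabolism, glutamine, proline and asparagine metabolism, amino acid transport, tRNA synthetases and the ATF4-CHOP programme, 13 were back from below (11.9%, beside 1.02% of all genes tested). These were Asns, Eif4ebp1, Eprs, Gars, Iars, Lars, Mthfd2, Nars, Nupr1, Psph, Slc7a1, Slc7a5 and Vars. Another 25 of the 109 were still lower (22.9%, beside 13.4%) and 7 still higher (6.42%, beside 11.8%).

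The promoters of 5 of these ATF4-related genes are shown because they hold the C/EBP-ATF element through which this group is known to be switched together. The element was searched as TGATGNAA on both strands in windows of 300 bases around RefSeq gene starts of GRCm38.p6, 250 before and 50 after the start. Of 20 genes of these lists that were back or crossed the Ad-Control level, 11 had a window and 5 of them held the element, set in capitals, which reads as its reverse complement where it lies on the other strand. The windows are given 5′ to 3′ on the strand of the gene, for Asns at chr6:7693160-7693459 (minus strand), Chac1 at chr2:119350992-119351291 (plus), Gars at chr6:55037751-55038050 (plus), Iars at chr13:49681880-49682179 (plus) and Nupr1 at chr7:126625421-126625720 (minus).
Asns: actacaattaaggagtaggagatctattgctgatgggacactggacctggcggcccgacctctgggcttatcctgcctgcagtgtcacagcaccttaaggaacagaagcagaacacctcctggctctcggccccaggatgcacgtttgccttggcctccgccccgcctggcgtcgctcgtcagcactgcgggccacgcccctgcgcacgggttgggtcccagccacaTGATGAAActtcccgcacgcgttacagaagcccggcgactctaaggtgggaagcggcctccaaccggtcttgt
Chac1: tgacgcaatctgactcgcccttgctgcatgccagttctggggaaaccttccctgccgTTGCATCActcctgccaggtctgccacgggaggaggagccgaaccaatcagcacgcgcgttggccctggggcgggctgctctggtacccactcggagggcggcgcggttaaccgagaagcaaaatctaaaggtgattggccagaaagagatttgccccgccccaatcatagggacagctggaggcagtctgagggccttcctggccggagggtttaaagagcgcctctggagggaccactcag
Gars: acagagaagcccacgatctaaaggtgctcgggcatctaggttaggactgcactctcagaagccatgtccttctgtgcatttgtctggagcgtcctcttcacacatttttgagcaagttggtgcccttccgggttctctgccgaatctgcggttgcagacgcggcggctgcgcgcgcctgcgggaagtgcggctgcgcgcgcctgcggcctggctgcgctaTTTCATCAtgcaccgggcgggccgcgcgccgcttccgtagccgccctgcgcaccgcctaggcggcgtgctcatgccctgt
Iars: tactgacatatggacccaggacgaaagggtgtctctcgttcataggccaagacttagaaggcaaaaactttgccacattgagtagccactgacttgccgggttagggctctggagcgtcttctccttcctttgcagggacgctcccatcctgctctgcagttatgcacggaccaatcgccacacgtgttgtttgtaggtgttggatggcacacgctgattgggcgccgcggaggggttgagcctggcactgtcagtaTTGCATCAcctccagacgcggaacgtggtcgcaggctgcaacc
Nupr1: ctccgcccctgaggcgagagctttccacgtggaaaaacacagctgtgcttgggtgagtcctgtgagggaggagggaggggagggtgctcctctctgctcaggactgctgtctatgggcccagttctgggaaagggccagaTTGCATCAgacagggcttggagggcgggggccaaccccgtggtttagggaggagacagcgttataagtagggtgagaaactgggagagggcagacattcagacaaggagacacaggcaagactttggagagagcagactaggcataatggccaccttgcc
The element began at position -23 from the start in Asns, -193 in Chac1, -30 in Gars, 7 in Iars and -110 in Nupr1. It was found in 4.51% of all 27025 mouse windows and in 2.71% of the 10905 windows of tested genes, beside 8 of 112 windows of genes back from below (7.14%), 5 of 14 of tRNA synthetases, 6 of 20 of the ATF4-CHOP list and 0 of 17 of the serine list. A match describes the letters in the window and no more.

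Asns, the asparagine synthetase gene with its element at position -23, was at 192, 177 and 176 CPM in Ad-Control, 88, 107 and 83.3 CPM in Ad-OSCAR and 186, 207 and 172 CPM in treated cultures. Treated and Ad-Control values overlapped, while all Ad-OSCAR values lay below both. The log2 difference from Ad-Control was 0.05 (95% interval -0.11 to 0.21, adjusted p = 0.566) with the drug and -0.97 without it, and the drug raised the gene by 1.03 (adjusted p = 7.94e-08). 

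**Figure D3:**
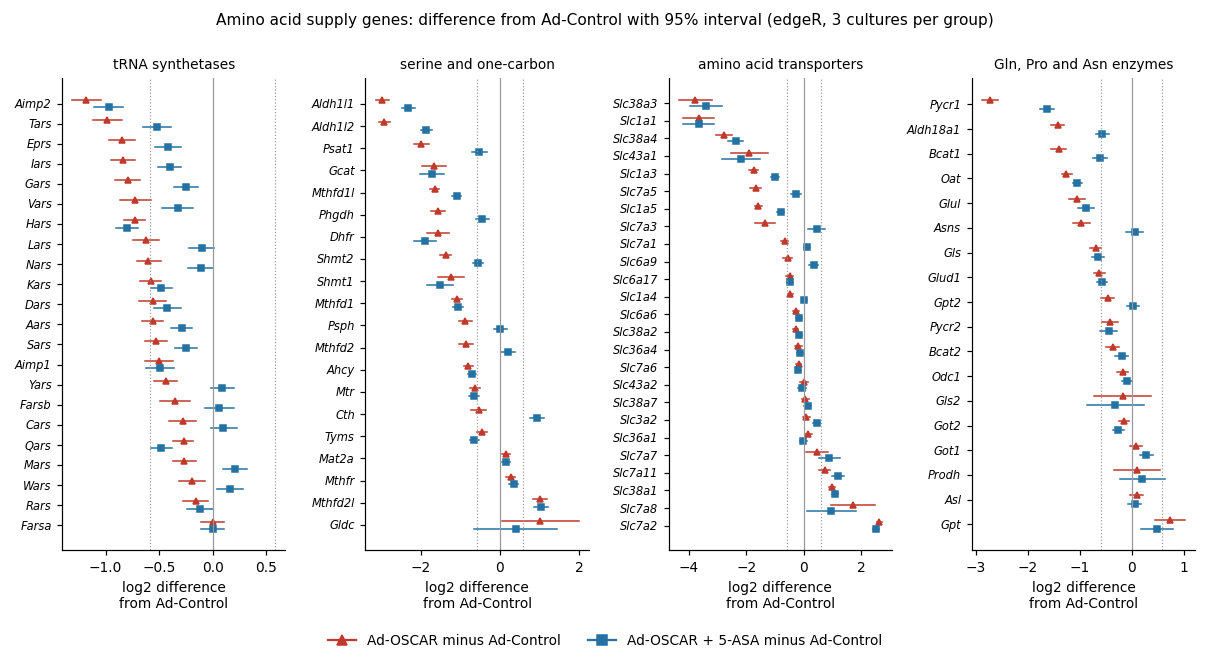
Log2 difference from Ad-Control with its 95% interval for tRNA synthetases, serine and one-carbon genes, amino acid transporters and glutamine, proline and asparagine enzymes, without 5-ASA (Ad-OSCAR) and with it (treated), n = 3 cultures per group, dotted lines at 1.5-fold. Asns moved from -0.97 to 0.05 and Slc7a5 from -1.68 to -0.27, while Phgdh and Psat1 stayed below the line of no difference.

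Synthesis of serine came back in part, and its steps differed. Psph, the last enzyme of the pathway, had 37.3, 31.9 and 30.7 CPM in Ad-Control, 17.9, 19.1 and 17.2 CPM in Ad-OSCAR and 35.2, 35 and 30.5 CPM in treated cultures, and treated and control values overlapped. Phgdh, the first enzyme, had 219.7, 195 and 208 CPM in Ad-Control, 71.5, 80.6 and 58 CPM in Ad-OSCAR and 154, 153 and 149.5 CPM in treated cultures. Its treated cultures lay between both other groups, at a log2 difference from Ad-Control of -0.45 (95% interval -0.61 to -0.28), and so met neither the bound nor the call.

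Psat1, the aminotransferase between those steps, was at 232, 213 and 216 CPM in Ad-Control, 53.5, 65 and 47.9 CPM in Ad-OSCAR and 145, 175 and 137 CPM in treated cultures. It had been 3.98-fold lower without the drug, rose by 1.46 on the log2 scale with it (adjusted p = 1.35e-08) and ended at a log2 difference of -0.53 (95% interval -0.72 to -0.34). Shmt2, which passes the serine carbon to mitochondrial folate, ended at -0.55 (95% interval -0.68 to -0.42). Over the 20 genes of serine and one-carbon metabolism tested, 2 were higher and 10 lower than Ad-Control in treated cells, beside 1 and 14 without the drug.

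Most tRNA synthetases lay within the bound under the drug, with 6 of 22 counted as back, and transporters were mixed. Of 25 amino acid transporters, 5 were higher (20%) and 6 lower (24%) than Ad-Control with the drug, beside 4 and 9 without it. Another 12 (48%) had their interval within the bound. Over all genes tested these shares were 14.1%, 15.1% and 49.2%. Slc7a5, the light chain of the large neutral amino acid transporter, had 156, 131 and 156 CPM in Ad-Control, 46.6, 52.7 and 39.2 CPM in Ad-OSCAR and 119, 129.7 and 117 CPM in treated cultures. Of all genes back from below it had been lowered the most, 3.19-fold, and its treated values lay just under the lowest control value (log2 difference -0.27, 95% interval -0.44 to -0.10, adjusted p = 0.00746). Gars, the glycyl-tRNA synthetase whose promoter is printed above, went from 267, 257 and 254 CPM in Ad-Control to 146, 159.9 and 143 CPM in Ad-OSCAR and 215, 233 and 205 CPM in treated cultures. Its treated values were all above Ad-OSCAR and all below Ad-Control. Nars, the asparaginyl-tRNA synthetase, was at 262, 256 and 245 CPM in Ad-Control, 166, 177 and 161 CPM in Ad-OSCAR and 229, 254 and 221 CPM in treated cultures, where the second treated culture reached the control range. Of 22 tRNA synthetases, 9 were lower without the drug and 2 with it, 18 had their interval within 1.5-fold of Ad-Control, and the drug raised 15 at an adjusted p under 0.05.

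Of the ATF4-linked regulators, Nupr1, a stress-induced chromatin protein, had 134, 132 and 131 CPM in Ad-Control, 67.9, 72.8 and 58.6 CPM in Ad-OSCAR and 116, 134 and 101 CPM in treated cultures. Its treated cultures spread widely and the second equalled the control level (log2 difference -0.18, 95% interval -0.35 to -0.01, adjusted p = 0.0669, and 0.00296 without that culture). Eif4ebp1, a brake on cap-dependent translation, was also back, at -0.27 beside -0.86 without the drug. The second culture had the highest Asns, Psat1, Slc7a5 and Nupr1 values within both OSCAR groups. Leaving out 1 culture at a time gave between 130 and 167 genes back from below.

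Among the genes back from below, 8 were named for the strongest lowering by OSCAR. Besides Slc7a5 they were Tspyl4, Mei4, Gm28035, Apln, Serping1, Col8a2 and Adh7. Serping1, the C1 inhibitor that restrains the classical complement pathway, was at 79.9, 76.7 and 81.2 CPM in Ad-Control, 32.8, 38.3 and 36.5 CPM in Ad-OSCAR and 78.7, 75.2 and 70 CPM in treated cultures. Treated and control values overlapped (log2 difference -0.09, 95% interval -0.21 to 0.03, adjusted p = 0.198), and the drug raised the gene by 1.06 (adjusted p = 4.89e-09). Apln, the gene of the vascular peptide apelin, had 67.3, 71.1 and 67.1 CPM in Ad-Control, 28.4, 33.9 and 29.5 CPM in Ad-OSCAR and 58.6, 57.7 and 56.4 CPM in treated cultures, the last all just below control. Mei4 and Adh7 were low genes with wide intervals, and Gm28035 shares its strand with Lrrc8a and Phyhd1, which overlap it, so its reads may belong to those genes.

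**Figure D4:**
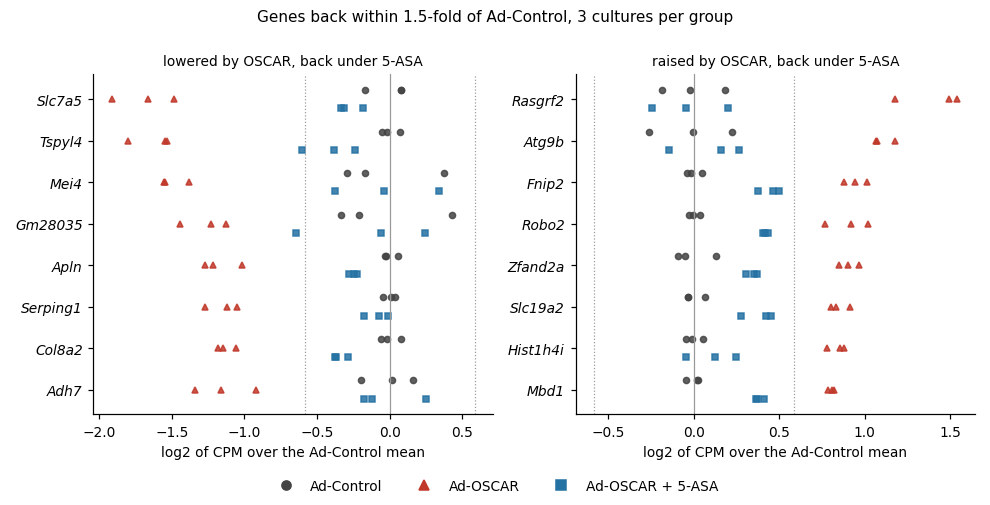
The log2 ratio of CPM to the Ad-Control mean in each of the 9 cultures for 8 raised and 8 lowered genes counted as back, with dotted lines at 1.5-fold; each point is 1 culture. Treated points fall around or between the dotted lines, and untreated Ad-OSCAR points outside them.

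Complement genes split between those back and those further away. C4b, a component of the classical pathway, stood at 345, 318 and 326 CPM in Ad-Control, 164, 171 and 152 CPM in Ad-OSCAR and 304, 294 and 309.6 CPM in treated cultures. The near-identical copy C4a can take or give reads, so the split is uncertain. C4b had been 2.03-fold lower and ended at a log2 difference of -0.12 (95% interval -0.23 to -0.02), with the treated values all below control. Cfb, the protease of the alternative pathway, was at 149, 139 and 145 CPM in Ad-Control, 257, 273 and 238 CPM in Ad-OSCAR and 376, 370.4 and 367 CPM in treated cultures, rising by a further 0.54 on the log2 scale to 2.57-fold above Ad-Control. C3, the central component, had 777, 727 and 732 CPM in Ad-Control, 1059, 1083 and 1004 CPM in Ad-OSCAR and 1277, 1254 and 1305 CPM in treated cultures. It passed the 1.5-fold call with the drug only (1.72-fold, adjusted p = 1.74e-11), and the drug raised 10 of the 15 complement genes tested.

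Small leucine-rich proteoglycans, which bind collagen fibrils, included 2 genes that were back. Bgn, or biglycan, was at 1708, 1636 and 1698 CPM in Ad-Control, 1032, 1105 and 1021 CPM in Ad-OSCAR and 1399, 1391 and 1354 CPM in treated cultures. Prelp, which anchors matrix to cell surfaces, had 1491, 1511 and 1536 CPM in Ad-Control, 828, 916 and 817 CPM in Ad-OSCAR and 1242, 1167 and 1277 CPM in treated cultures. For both, the treated cultures lay between the other groups without overlap. Dcn, or decorin, went the other way and was 2.47-fold above Ad-Control at 4042, 4171 and 3954 CPM.

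Sterol and cytoskeletal genes moved toward control, mostly without reaching it. The drug raised 22 of 29 sterol genes, yet 20 were still lower than Ad-Control, beside 24 without it. Msmo1, a sterol oxidase counted as back, had 72.7, 73 and 73.4 CPM in Ad-Control, 38.4, 44 and 41 CPM in Ad-OSCAR and 61.4, 64 and 57.4 CPM in treated cultures, and Fdps, the farnesyl diphosphate synthase, was still 2.84-fold lower at 42.1, 41.6 and 43.2 CPM. Of 25 actin and contractility genes 14 were lower with and 17 without the drug, and it raised 18. Flna, the actin crosslinker filamin A, came back to a log2 difference of -0.35 from -0.71.

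Among genes OSCAR had raised, the 8 named by the size of that rise were Rasgrf2, Atg9b, Fnip2, Robo2, Zfand2a, Slc19a2, Hist1h4i and Mbd1. Rasgrf2, a guanine exchange factor for Ras, was at 1.18, 1.52 and 1.32 CPM in Ad-Control, 3.9, 3.03 and 3.78 CPM in Ad-OSCAR and 1.54, 1.13 and 1.3 CPM in treated cultures, where treated and control values overlap. It fell by 1.44 on the log2 scale with the drug (adjusted p = 2.81e-05), from 2.66-fold above Ad-Control. Fnip2, a folliculin partner in nutrient sensing at the lysosome, had 24.1, 25.2 and 23.7 CPM in Ad-Control, 46.8, 44.7 and 49.1 CPM in Ad-OSCAR and 31.6, 33.6 and 34.4 CPM in treated cultures, which stayed above every control culture (log2 difference 0.44, 95% interval 0.32 to 0.57). Slc19a2, a thiamine transporter, and Zfand2a, a stress-induced protein of the proteasome, ended at 0.39 and 0.35. The values of Atg9b, an autophagy gene, and Hist1h4i, a histone H4 gene, are uncertain, the first because Nos3 overlaps it on the other strand and the other because histone H4 genes are near-identical copies.

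The p53 programme came down in part. Of 25 p53 targets tested, 15 were higher without the drug and 10 with it, and the drug lowered 16 at an adjusted p under 0.05. Cdkn1a, the cell cycle inhibitor p21, was at 199, 202 and 205 CPM in Ad-Control, 586, 568 and 587 CPM in Ad-OSCAR and 429, 408 and 445 CPM in treated cultures, still 2.12-fold higher (adjusted p = 2.13e-13). Bax, a mitochondrial death effector, met the bound at 125, 117 and 118 CPM beside 83.3, 85 and 93.4 CPM in Ad-Control and 146, 149.6 and 137 CPM in Ad-OSCAR, its treated values lying between both. Bbc3, which encodes the death protein PUMA, and Phlda3, an inhibitor of Akt, were back as well, at log2 differences of 0.32 and 0.38.

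No gene that OSCAR had moved past the threshold went past the same threshold on the other side of Ad-Control under the drug. The count was 0 (0%) in each direction in edgeR and also 0 in each direction in DESeq2. At an unadjusted p under 0.05 the counts were 0 below and 1 above Ad-Control, the 1 being Gm43314, which lies on the strand of Cth and overlaps it. Cth itself took that place when Ad-OSCAR replicate 2 was left out, and Cd72 went below when Ad-OSCAR replicate 1 was left out.

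With no limit on the fold, 44 genes (0.286%) that OSCAR had lowered were above Ad-Control and 6 (0.0391%) that it had raised were below, with each of the 3 group differences at an adjusted p under 0.05. Of the 109 genes of amino acid supply and the ATF4 programme, 9 were among the 44 (8.26%): Atf4, Chac1, Cth, Mars, Mthfd2, Slc6a9, Slc7a1, Slc7a3 and Wars. Of these 9, 4 lost an adjusted p under 0.05 against Ad-Control when 1 culture was left out in edgeR, with a highest adjusted p of 0.201 for Mthfd2, 0.156 for Slc7a1, 0.0912 for Slc7a3 and 0.0851 for Wars. Over all 44 genes 14 did so, and of the 6 below only Cenpt. Mars overlaps Ddit3, the gene of CHOP, on the other strand.

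Cth, the cystathionine gamma-lyase that makes cysteine, crossed the farthest, at 37.8, 37.4 and 35.3 CPM in Ad-Control, 24.1, 29.6 and 22.4 CPM in Ad-OSCAR and 69, 79 and 62.7 CPM in treated cultures. The 3 groups did not overlap, and treated cells were 1.91-fold above Ad-Control (log2 difference 0.93 ± 0.09, adjusted p = 2.72e-08), where OSCAR alone gave a log2 difference of -0.54. Chac1, a glutathione-degrading enzyme and ATF4 target whose promoter is printed above, had 39.8, 37.9 and 41.6 CPM in Ad-Control, 31, 33.7 and 26.7 CPM in Ad-OSCAR and 58.4, 64.1 and 56.4 CPM in treated cultures. It was 1.5-fold above Ad-Control, just past the limit, with no overlap (adjusted p = 9.38e-07) and had been lowered by less than 1.5-fold.

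Atf4 itself was at 385, 379 and 369 CPM in Ad-Control, 319, 334 and 294 CPM in Ad-OSCAR and 445, 461 and 408 CPM in treated cultures. All treated cultures were above all controls, by 0.21 ± 0.05 on the log2 scale (adjusted p = 0.00181). Mthfd2, a mitochondrial folate enzyme, was counted as back and yet lay above Ad-Control, at 107, 117 and 95.2 CPM beside 91.7, 95.7 and 90.1 CPM, with an overlap of the lowest treated and the highest control culture (adjusted p = 0.0391, and 0.201 without the second treated culture). Slc7a3, a cationic amino acid transporter, had 26.6, 35.6 and 25.2 CPM under the drug beside 24.1, 20.9 and 19.6 CPM in Ad-Control, without overlap. Its adjusted p = 0.0109 depended on 1 culture, and became 0.0912 without the second treated culture in edgeR. It was 0.146 in DESeq2 and 0.00268 in edgeR with a replicate block. Slc6a9, a glycine transporter, had 124, 125 and 120.4 CPM under the drug beside 104, 86.5 and 100.3 CPM in Ad-Control and 62.6, 74 and 60 CPM in Ad-OSCAR, and its groups did not overlap.

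The rest of the 44 included Slc9a9, an endosomal proton exchanger, at 16, 16.6 and 15.3 CPM under the drug beside 10.9, 9.82 and 9.73 CPM in Ad-Control and 8.14, 8.77 and 6.69 CPM in Ad-OSCAR. Lbp, the lipopolysaccharide-binding protein, had 489.7, 471 and 476 CPM under the drug, 349.7, 324 and 316 CPM in Ad-Control and 275, 302 and 261 CPM in Ad-OSCAR. Neither gene's groups overlapped, and the folds over Ad-Control were 1.57 and 1.45.

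The 6 genes below Ad-Control included Ddias, Hmox1, Tnfrsf23, Rps27l and Cenpt. Hmox1, the haem oxygenase of the oxidative stress response, was at 119.8, 123 and 132 CPM in Ad-Control, 136, 141 and 143 CPM in Ad-OSCAR and 95.1, 93.4 and 105 CPM in treated cultures, with no overlap (log2 difference from Ad-Control -0.35 ± 0.05, adjusted p = 1.69e-05). Cenpt, a kinetochore protein, overlapped between treated and Ad-Control cultures, and its adjusted p = 0.0329 rose above 0.05 in 6 of its alternatives.

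**Figure D5:**
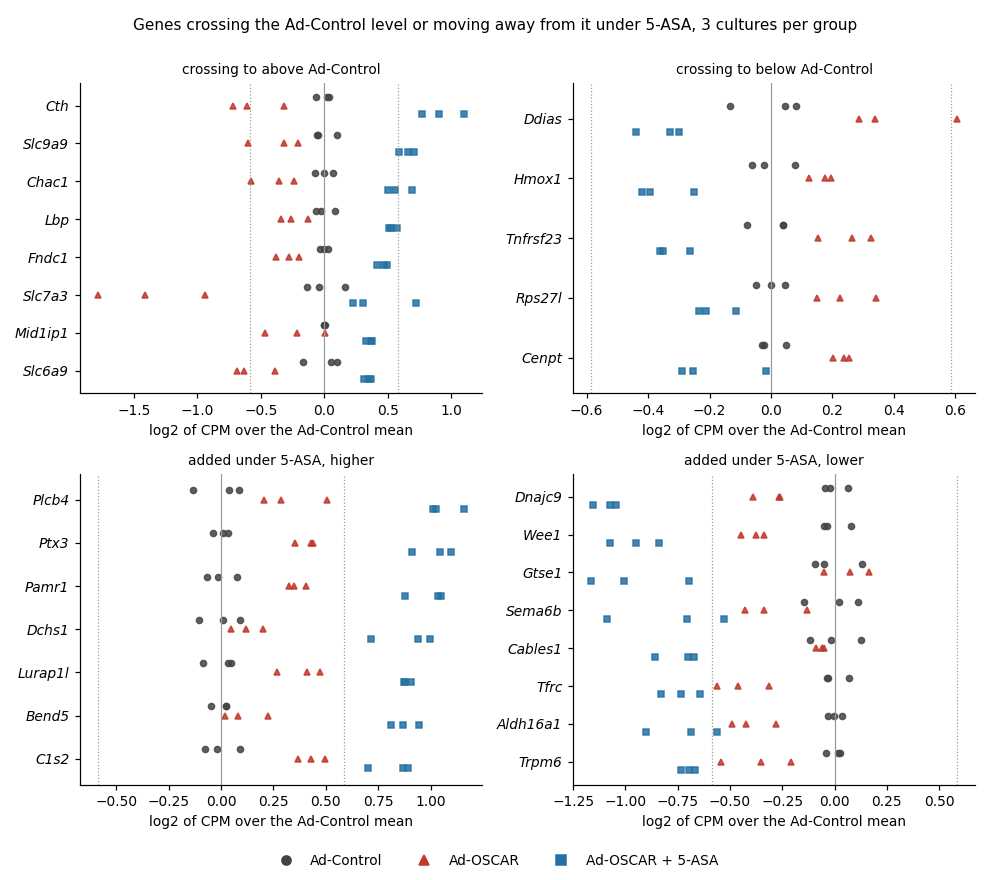
The log2 ratio of CPM to the Ad-Control mean in each of the 9 cultures for genes crossing the Ad-Control level or moving away from it under 5-ASA, with dotted lines at 1.5-fold; each point is 1 culture. Cth lies below the Ad-Control cultures without the drug and above them with it, and Ptx3 and Dnajc9 lie outside the dotted lines with the drug.

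Some genes left Ad-Control only with the drug in the sense that OSCAR alone kept its 95% interval within 1.5-fold while treated cells passed the call and differed from untreated ones at an adjusted p under 0.05. There were 63 such genes higher (0.41%) and 26 lower (0.169%). Ptx3, a secreted pattern recognition protein, had 843, 857 and 816 CPM in Ad-Control, 1137, 1129 and 1070.0 CPM in Ad-OSCAR and 1729.8, 1790.4 and 1574 CPM in treated cultures. The 3 groups did not overlap, and treated cells were 2.03-fold above Ad-Control (log2 difference 1.02 ± 0.05, adjusted p = 1.72e-12). Dchs1, a large protocadherin, had 15.5, 14.3 and 16.4 CPM in Ad-Control, 16.7, 17.7 and 15.9 CPM in Ad-OSCAR and 29.5, 25.3 and 30.7 CPM in treated cultures, where Ad-OSCAR and Ad-Control overlapped and treated cultures were higher. C1s2, a C1s protease copy, and Plcb4, a phospholipase C, gave log2 differences of 0.82 and 1.07.

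Among the 26 genes lower only in that sense, Dnajc9, a histone co-chaperone, was at 22.2, 23.5 and 21.8 CPM in Ad-Control, 18.8, 18.7 and 17.2 CPM in Ad-OSCAR and 10.7, 10.9 and 10.1 CPM in treated cultures, 2.13-fold below Ad-Control (adjusted p = 2.24e-10). Gtse1, a mitotic spindle protein, had 19, 19.6 and 22.2 CPM in Ad-Control, 21.3, 19.6 and 22.7 CPM in Ad-OSCAR and 10.1, 9.05 and 12.5 CPM in treated cultures. Its first 2 groups overlapped and the treated one lay 1.92-fold lower (adjusted p = 2.2e-07). Tfrc, the transferrin receptor that brings in iron, had 159.8, 172 and 160.4 CPM in Ad-Control, 119, 111 and 132 CPM in Ad-OSCAR and 92.2, 105 and 98.7 CPM in treated cultures (log2 difference -0.73 ± 0.06, adjusted p = 9.71e-09). Wee1, the kinase that holds back mitosis, fell to a log2 difference of -0.95. Without Ad-OSCAR replicate 1, 16 genes were lower in this sense, 14 of them among the 26.

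Chaperones of the endoplasmic reticulum moved away from Ad-Control under the drug. Of 26 tested, 13 were lower and 1 higher in treated cells, beside 8 and 1 without it, and the median log2 difference was -0.60 beside -0.46. Hsp90b1, the luminal Hsp90, had 1409, 1576 and 1361 CPM in Ad-Control, 1160.5, 1126 and 1214 CPM in Ad-OSCAR and 944, 954 and 925 CPM in treated cultures. The groups did not overlap, and treated cells were 1.54-fold below Ad-Control (adjusted p = 3.78e-09). Hspa5, the luminal Hsp70 also called BiP, was at 1336, 1384 and 1306 CPM in Ad-Control, 1132, 1085 and 1209 CPM in Ad-OSCAR and 918, 903 and 891 CPM in treated cultures, again in 3 separate ranges, with a log2 difference of -0.57 that missed the 1.5-fold call. Creld2, a secretory pathway stress protein, was among the genes lower only with the drug in the sense above, at -0.63.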

How the data were processed

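RNA from 9 cultures was sequenced from stranded, polyA-selected libraries. After trimming with BBDuk and alignment to GRCm38 with STAR 2.7.1a, the authors made estimated counts per gene with RSEM 1.3.1 and deposited these expected counts, not all of them whole, as 1 table per culture. The deposited TPM values, scaled by the authors with RSEM within each library, were used here to rank list members by level. The study's reporting summary names a Gencode release and another RSEM version for TPM, and which annotation the deposited tables used was not settled, so genes were matched by identifier to GENCODE M21 (55230 of 55471). No source used here says whether reads were counted by strand. For Cenpt (Tsnaxip1), Nfkb2 (Psd), Psph (Cct6a), Ptx3 (Veph1), Shmt2 (Ndufa4l2), Slc6a9 (B4galt2), Tspyl4 (Nt5dc1) and Wars (Wdr25) the gene in brackets overlaps on the other strand, so reads of both may be mixed.

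Counts were rounded, scaled by the trimmed mean of M values and fitted for all 9 cultures at once by edgeR 4.0.16 (quasi-likelihood F test, two-sided, R 4.3.3), after edgeR's filter on low counts by group. The 3 group differences were taken from that fit, with Benjamini-Hochberg adjustment over 15362 genes, standard errors from the F statistic and 95% intervals on 6 residual degrees of freedom before moderation. The biological coefficient of variation was 5.11%. The steps were tested on simulated counts with 15157 genes, where 50 of 50 genes made still different, back, crossing or added were recovered in each of the 4 classes. The simulated shifts were larger than those of the genes counted as back here, so recovery near the limits was not tested.

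The members and lists were chosen with earlier results of these data known. Named genes were protein-coding, with a mean of at least 1 CPM, the 8 with the largest differences in each class (at least 10 CPM in the higher group for genes still different), and in each list described the 4 with the highest TPM and the members in a class. Where no gene went past 1.5-fold on the other side of Ad-Control, the genes crossing without a fold limit were ranked in their place. A few genes that this rule names are not reported here. Alternatives were other scalings, filters, limits and intervals, DESeq2 1.42.0, a replicate block and leaving out each culture. Sequences are RefSeq windows of GRCm38.p6.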

Additional observations from a re-analysis of the deposited data

How the results depend on the processing

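Of 1719 alternative values of treated against Ad-Control for 115 named genes, 1681 kept their side of 0.05, 30 lost it and 8 gained it. Losses fell on Cenpt, Slc7a3, Mthfd2, Slc7a1, Wars, Bbc3 and C4b, and gains on Lars, Nars and Nupr1. No called value changed sign, and 16 values did so for genes that were not called. Counts over all genes depended mainly on the limits set. With no fold limit, 4825 genes were higher and 4880 lower in treated cells, 4157 were still higher, 4288 still lower, 391 and 512 back from above and from below, 6 and 44 past Ad-Control on the other side (below and above) and 345 and 224 added (higher and lower). Testing against 1.5-fold with glmTreat gave 1398 genes higher. Taking as OSCAR-changed the genes with a log2 difference above 1.5, a limit named in the study's methods, gave 668 still higher, 804 still lower, 0 back from above and 2 back from below. A narrower bound on the interval left 2 back from above, 17 back from below, 7 added higher and 3 added lower, and DESeq2 gave 50 back from above. Of genes past Ad-Control on the other side, there were 2 below and 4 above without the filter on low counts, 1 above under RLE scaling, 1 above with at least 10 counts in every culture and 1 above at an unadjusted p.

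Leaving out 1 culture gave 2082 to 2177 genes higher, 2277 to 2356 lower, 1759 to 1803 still higher, 2037 to 2068 still lower, 49 to 91 back from above, 130 to 167 back from below, 0 to 1 past Ad-Control on each side, 44 to 64 added higher and 16 to 29 added lower. The 49 came without treated replicate 1 and the 16 without Ad-OSCAR replicate 1. Where a count moved, the cause was not tested beyond the smaller number of cultures or the limit itself.

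Deviations of same-numbered cultures correlated at -0.0724 to 0.0402 over all genes tested. Such values cannot show whether those cultures shared animals or a preparation, and the main fit did not pair them. With a replicate block, 2132 genes were higher, 2298 lower, 1794 still higher, 2051 still lower, 72 and 147 back, 62 and 24 added, 0 above and 1 below (Gm20507) past the other side of Ad-Control. Among named genes the block moved the adjusted p in edgeR across 0.05 for C4b (0.0504), Nars (0.0457) and Nupr1 (0.0183).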

Other observations

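Interferon and antigen presentation genes stood between both outcomes described so far. Of 31 interferon-stimulated genes tested, 13 were higher and 2 lower than Ad-Control under the drug, beside 16 and 3 without it, with medians of 0.37 and 0.61 on the log2 scale. Of 22 genes of MHC class I and antigen processing, 8 were higher and 2 lower with the drug and 11 and 0 without it, and H2-T22 and H2-T23, nonclassical class I genes, were back at log2 differences of 0.48 and 0.42, values that may share reads with other class I genes. Acute-phase genes went the other way, with 12 of 16 higher under the drug and 10 without it. Saa3, a serum amyloid A gene, was at 7119, 6939 and 7132 CPM in Ad-Control, 28371, 30065 and 27327 CPM in Ad-OSCAR and 35653, 35335 and 31905 CPM in treated cultures, the highest of the 3 groups. Respiratory chain and ATP synthase subunits were near Ad-Control in both groups, with the interval within 1.5-fold for 31 of 33 under the drug.

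Several genes of the lysosome were among the 77 back from above. They were picked after their values were seen, so their number says nothing. Atp6v1d, a subunit of the proton pump, had 34, 38 and 32.9 CPM in Ad-Control, 57.8, 55.6 and 60.4 CPM in Ad-OSCAR and 44.1, 44.2 and 42.4 CPM in treated cultures. Mcoln1, a lysosomal calcium channel, had 36.1, 36.9 and 37.2 CPM in Ad-Control, 56.8, 60.1 and 61.5 CPM in Ad-OSCAR and 49.2, 48.4 and 49.3 CPM in treated cultures. Flcn, the folliculin gene, had 29, 31.7 and 33.5 CPM in Ad-Control, 51.5, 51.8 and 48.7 CPM in Ad-OSCAR and 39, 35.7 and 40.9 CPM in treated cultures. For all 3 genes the treated cultures lay between the other groups without overlap.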
